A study of Homo sapiens and Mus musculus with 10 samples.

Results

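Promoters of long non-coding RNA (lncRNA) genes were examined in bulk ATAC-seq peak lists of 4 human cell lines. The promoters were those of the 12001 autosomal lncRNA genes of GENCODE release 44 that have every annotated start site more than 5 kb from any start site of a protein-coding gene. They are 65.3% of the 18390 autosomal lncRNA genes, and 12001 of the 59578 autosomal genes of all types. A promoter was the 1 kb on either side of the gene start, and a peak at a promoter overlapped that window by at least 1 bp. No measured value entered this rule, but it was chosen with earlier results of these data known. Of the 12001 genes, 9025 start outside protein-coding genes, 2059 start inside such a gene on the opposite strand and 917 inside such a gene on the same strand. A gene symbol was given for 3320 of them, and the rest carry an identifier only.

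ATAC-seq marks accessible chromatin by the sites where the Tn5 transposase inserts adapters. The lines were GM12878 (a B-lymphoblastoid line), HEK293T (derived from embryonic kidney, with SV40 large T antigen), HFF1 (fibroblasts from foreskin) and K562 (an erythroleukaemia line), each with 2 replicates and with no treatment, genotype change or allele named in the labels. Each group is 1 cell line, and nothing in the labels says whether its replicates came from separate cultures, so p-values measure only the spread between these libraries, which may be technical. Of 9 protein-coding marker genes of the lines, 8 had a promoter peak in both replicates of their own line and 7 in no other library. The exceptions were COL1A2, a fibroblast collagen gene also called in GM12878 and K562, and PAX2, an embryonic kidney gene without a peak in any library. Of all autosomal protein-coding promoters, 64.3% had a peak in both replicates of GM12878, 60.0% of HEK293T, 69.4% of HFF1 and 62.7% of K562. Of these, 2.98%, 0.750%, 4.46% and 2.07% had none in a library of another line.

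An lncRNA is transcribed by RNA polymerase II, and is usually capped and spliced, but does not code for a protein. Many lncRNA genes are transcribed at low levels and in few cell types, while a smaller set, which includes hosts of small nucleolar RNAs (snoRNAs) and MALAT1, is active in most cells. Promoters in CpG islands, stretches rich in the dinucleotide CG that are mostly unmethylated, are commonly open in many cell types. Promoters without such an island more often depend on factors particular to a cell type. The start sites of lncRNA genes are also less well mapped than those of protein-coding genes, and the gene start used here is that of the outermost annotated transcript.

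Depth differed between lines. The background level, the lowest local background of a list and a measure proportional to depth, came to 0.465 ± 0.000805 reads for HEK293T (SD over 2 replicates). It was higher in the others, with 1.72 ± 0.0143 for GM12878, 2.09 ± 0.170 for K562 and 2.25 ± 0.263 for HFF1. HFF1 had the longest lists, with 117703 to 124544 autosomal peaks, before GM12878 with 98647 to 100631, K562 with 69178 to 76251 and HEK293T with 50183 to 50482. The peak names begin with AH in replicate 1 and BH in replicate 2 of HEK293T, HFF1 and K562, and with NGS-GE in both GM12878 lists, so for GM12878 the line cannot be told apart from the prefix.

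Sequences are printed for promoters with the highest folds among genes with a symbol called in GM12878, HEK293T or HFF1 only or in all 4 lines. They show how the sequence at the summit of line-restricted and widely open lncRNA promoters can look. All are from hg38, read 5′ to 3′ on the strand of the gene, and cover 100 bases on either side of the summit in replicate 1. Capitals mark matches to the motifs searched, which are listed with their counts further on; in LINC03009, open in all 4 lines, capitals mark CG dinucleotides instead. PRDM4-AS1 was called in GM12878 only (chr12:107737028-107737228, plus strand), LINC02303 in HEK293T only (chr14:45716623-45716823, minus strand) and SLC1A2-AS1 in HFF1 only (chr11:35282578-35282778, plus strand). LINC03009 lies at chr7:76549115-76549315 on the plus strand.
PRDM4-AS1: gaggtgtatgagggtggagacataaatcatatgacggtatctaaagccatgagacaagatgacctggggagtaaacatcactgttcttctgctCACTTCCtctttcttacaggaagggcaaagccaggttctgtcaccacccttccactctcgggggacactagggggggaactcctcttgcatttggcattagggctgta
LINC02303: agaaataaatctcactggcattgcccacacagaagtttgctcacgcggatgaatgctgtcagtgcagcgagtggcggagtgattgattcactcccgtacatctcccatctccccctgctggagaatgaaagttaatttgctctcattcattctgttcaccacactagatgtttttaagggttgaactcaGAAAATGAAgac
SLC1A2-AS1: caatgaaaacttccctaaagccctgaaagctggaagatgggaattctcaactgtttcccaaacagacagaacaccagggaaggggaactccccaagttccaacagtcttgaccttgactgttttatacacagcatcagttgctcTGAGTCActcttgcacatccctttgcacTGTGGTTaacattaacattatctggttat
LINC03009: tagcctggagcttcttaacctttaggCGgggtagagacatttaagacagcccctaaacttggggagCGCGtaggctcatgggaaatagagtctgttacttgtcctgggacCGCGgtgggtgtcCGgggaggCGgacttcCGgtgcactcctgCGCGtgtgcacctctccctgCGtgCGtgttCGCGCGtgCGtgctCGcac

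The 4 sequences differ in CG content. LINC03009 holds 17 CG dinucleotides with 60.7% G and C. The fibroblast sequence at SLC1A2-AS1 holds 0, with 1 match to the AP-1 motif and 1 to the RUNX motif. PRDM4-AS1 holds 2 and LINC02303 holds 5. A promoter called in K562 only is shown further on, beside the GATA motif.

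A minority of lncRNA promoters was accessible in any library. In GM12878, 2160 promoters had a peak in replicate 1 and 2191 in replicate 2, which is 18.1% ± 0.183 of the 12001 (SD, n = 2). HFF1 had the most, with 2751 and 2613 promoters (22.3% ± 0.813), and HEK293T the fewest, with 1450 and 1425 (12.0% ± 0.147). K562 had 2237 and 2099 (18.1% ± 0.813), so its 2 libraries lay on either side of those of GM12878. In bulk cells, fewer cells with an open promoter and less opening per cell cannot be told apart. A share of 0.988 of the variance between libraries lay between lines (eta squared, exact one-sided permutation test over all pairings of the 8 libraries, p = 0.0286), which did not pass 0.05 after adjustment over the 5 tests made (adjusted p = 0.0714). Replicate 1, prefix AH, exceeded replicate 2, prefix BH, in each of HEK293T, HFF1 and K562.

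The differences between lines shrank at equal depth, and their order changed in lists of equal length. With every pileup thinned to the depth of HEK293T, a setting added once the data had been seen, HFF1 fell to 16.2% ± 0.106 (SD, n = 2), GM12878 to 15.1% ± 0.183 and K562 to 13.0% ± 0.342, against 12.0% ± 0.153 in HEK293T. With only the 50000 peaks of highest −log10 p of each list, K562 was highest at 14.2% ± 0.0236, and HFF1 had 12.8% ± 0.0825, GM12878 12.1% ± 0.0589 and HEK293T 11.9% ± 0.0943. HEK293T was lowest in each of these settings.

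**Figure D1:**
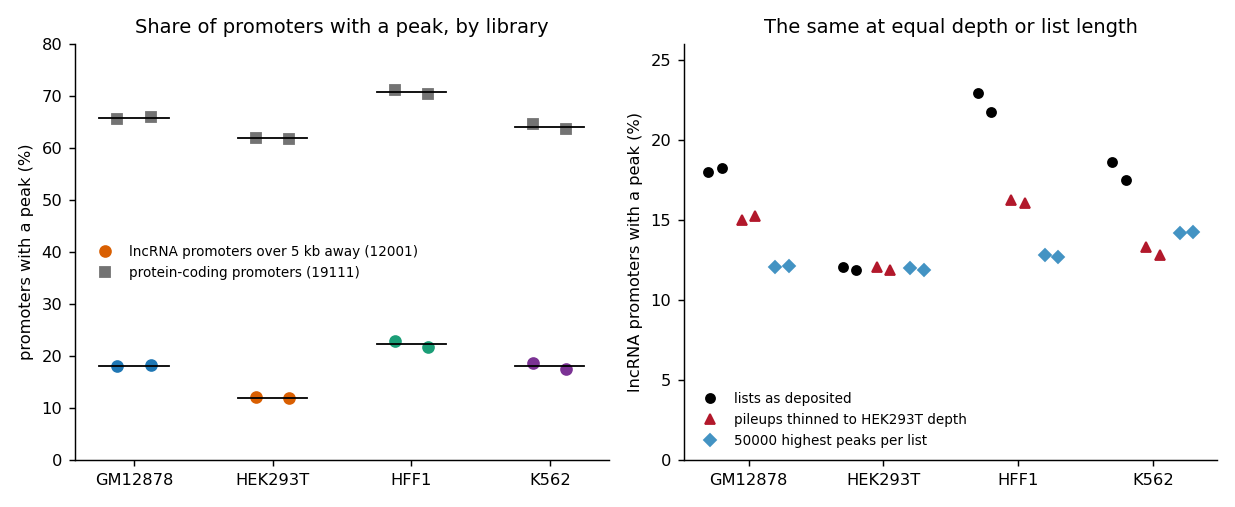
Left: share of promoters with a peak (percent) in each of 8 libraries, with circles for lncRNA promoters, coloured by line, squares for protein-coding promoters and lines for the mean of 2 replicates. Right: the lncRNA share in lists as deposited, thinned to HEK293T depth, or cut to the 50000 highest peaks; the lncRNA shares lie far below the protein-coding ones, and K562 passes HFF1 in lists of equal length.

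Protein-coding promoters were accessible far more often. Of the 19111 autosomal protein-coding genes, 70.8% ± 0.529 had a peak in HFF1 (SD over 2 replicates), while GM12878 had 65.7% ± 0.244, K562 64.1% ± 0.618 and HEK293T 61.8% ± 0.185. The lncRNA share was lower by 47.6 percentage points in GM12878, 49.9 in HEK293T, 48.5 in HFF1 and 46.0 in K562, a mean difference of -48.0. All 4 lines showed this direction, and the exact sign-flip test over 4 lines gave the smallest p it can give, which does not pass 0.05. In the deposited lists the ratio between the 2 shares was widest in HEK293T, where a protein-coding promoter had a peak 5.13 and 5.20 times as often. It was narrowest there in HFF1, at 3.11 and 3.24 times. With the 50000 highest peaks the protein-coding and lncRNA shares were 60.3% and 14.2% in K562 and 59.7% and 12.8% in HFF1, so the ratio was then narrower in K562.

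Peaks at lncRNA promoters were also smaller. The strongest peak in the window had a median width of 305 to 441 bp over the 8 libraries, against 539 to 856 bp at protein-coding promoters. Its median pileup was 47 reads in both GM12878 libraries against 106 and 108 at protein-coding promoters, and 20 reads in both HEK293T libraries against 33. The fold, which compares the summit pileup with the local background of the same list, differed less. Its median in K562 was 7.48 and 7.60 at lncRNA promoters against 8.93 and 9.08 at protein-coding ones. Over all peaks in the windows, the median log2 fold was lower at lncRNA promoters by 0.08 in GM12878, 0.13 in HEK293T, 0.13 in HFF1 and 0.25 in K562, with a mean of -0.14 and again the smallest p that 4 lines allow. The mean was -0.04 both with the 50000 highest peaks (exact sign-flip p = 0.5) and with any annotated start (exact sign-flip p = 0.375).

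Summits gathered at the annotated start. In the 250 bp before the start there were 6.30 summits per 100 lncRNA genes in GM12878 (mean of 2 replicates), 4.63 in HEK293T, 7.88 in HFF1 and 7.28 in K562. The density within 250 bp of the start exceeded that at 4 to 5 kb by 4.87 and 4.96 times in GM12878, 4.94 and 4.92 times in HFF1, 7.36 and 7.91 times in K562 and 8.92 and 8.53 times in HEK293T. At 8262 processed pseudogenes equally far from protein-coding starts, copies of messenger RNAs that mostly lack a promoter, the same ratio was 0.969 and 1.02 in GM12878, 0.849 and 0.926 in HFF1, 1.53 and 1.59 in HEK293T and 2.00 and 1.94 in K562. Between 47.0% and 55.3% of the strongest summits at lncRNA promoters lay within 250 bp of the start, against 68.0% to 71.1% at protein-coding promoters. The median summit lay 26 to 32 bp before the start.

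**Figure D2:**
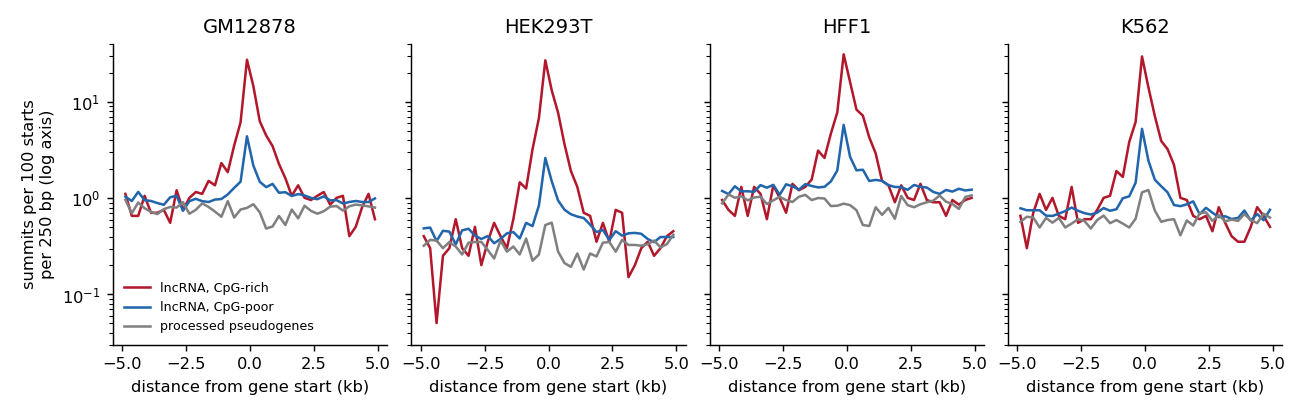
Peak summits per 100 gene starts in bins of 250 bp (log axis, mean of 2 replicates) against the distance from the gene start in kb, for CpG-rich and CpG-poor lncRNA genes and processed pseudogenes in each line. Both lncRNA classes rise at the start, to 27.1 to 31.2 summits for CpG-rich and 2.61 to 5.78 for CpG-poor genes in the 250 bp before it, and the pseudogenes have 0.527 to 1.15 there.

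Peaks in both replicates made a promoter called in that line. By this rule 2041 lncRNA promoters (17.0%) were called in GM12878, 1284 (10.7%) in HEK293T, 2461 (20.5%) in HFF1 and 1950 (16.2%) in K562. Over the starts of all autosomal genes, 33.5% were called in GM12878, 28.5% in HEK293T, 36.3% in HFF1 and 31.9% in K562, so lncRNA promoters lay below the background in every line. Replicates agreed less at lncRNA promoters. Of the promoters with a peak in either replicate, 88.4% had it in both in GM12878, 84.8% in HFF1, 81.7% in K562 and 80.7% in HEK293T, against 94.3% to 96.0% of protein-coding promoters. The 269 to 442 promoters per line with a peak in 1 replicate only had weak peaks, with median folds of 4.44 to 6.49 against 7.89 to 10.1 at those called.

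Called lncRNA promoters were shared between lines to a small extent. At least 1 line called 3803 of the 12001 promoters (31.7%, against 44.5% of all autosomal genes), and 7474 had no peak in any library. Of the 3803, 1931 were called in 1 line, 624 in 2, 435 in 3 and 813 in all 4. The 813 are 6.77% of the lncRNA promoters, against a background of 23.7% and against 52.0% of protein-coding promoters. The Jaccard index, the number of promoters with a peak in both of 2 libraries over the number with one in either, averaged 0.839 ± 0.0344 over the 4 pairs of replicates (SD) and 0.412 ± 0.0260 over the 24 pairs of different lines. No other pairing of the 8 libraries gave as large a difference (0.427, exact one-sided permutation test, p = 0.00952, the smallest it can give, adjusted p = 0.0476 over 5 tests). For protein-coding promoters the same averages were 0.954 ± 0.00755 and 0.813 ± 0.00871. Among lncRNA promoters the mean index was highest for HEK293T and K562 (0.442 over 4 pairs) and lowest for HEK293T and HFF1 (0.376). The pairs of HEK293T with K562 (0.433 to 0.454) overlapped those of GM12878 with K562 (0.433 to 0.437). Unequal numbers of promoters with a peak cap the index. HEK293T had the fewest and HFF1 the most, so this order cannot be told apart from depth and list length. At protein-coding promoters HEK293T and HFF1 averaged 0.823, where the means of line pairs ran from 0.801 to 0.824.

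**Figure D3:**
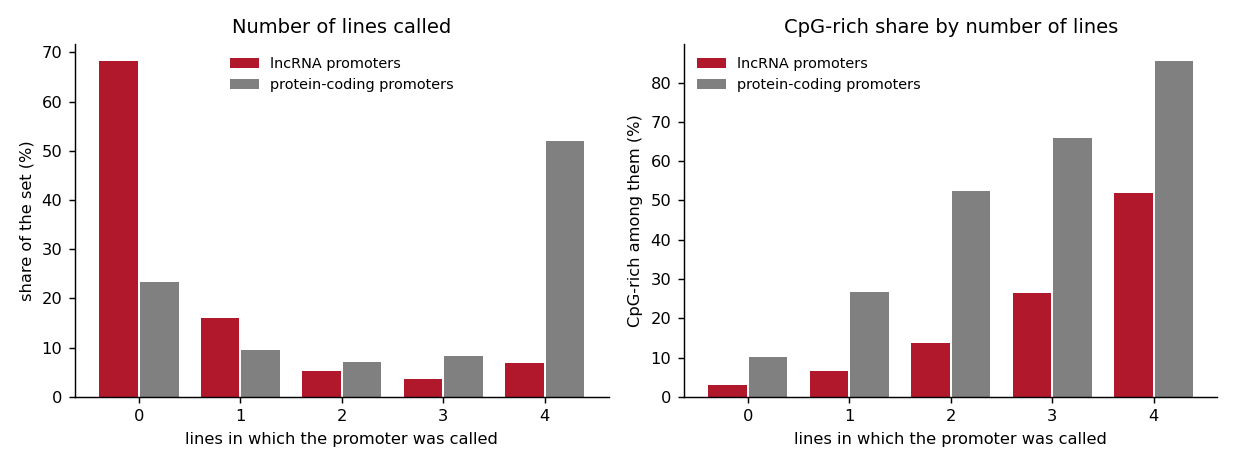
Left: share of the 12001 lncRNA and 19111 protein-coding promoters (percent) called in 0, 1, 2, 3 or 4 lines. Right: share of each of these sets that is CpG-rich; 6.77% of lncRNA promoters and 52.0% of protein-coding promoters were called in all 4 lines, and the CpG-rich share rises with the number of lines in both.

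Promoters called in 1 line and without a peak in any library of another line numbered 1601, or 42.1% of the 3803, against 8.81% of the protein-coding promoters called. HFF1 alone called 743 lncRNA promoters, GM12878 alone 397, K562 alone 388 and HEK293T alone 73, which is 6.19%, 3.31%, 3.23% and 0.608% of the 12001. The background over all autosomal genes was 3.80% in HFF1, 2.51% in GM12878, 1.85% in K562 and 0.406% in HEK293T. As a share of the promoters called in the line, these were 30.2% in HFF1, 19.9% in K562, 19.5% in GM12878 and 5.69% in HEK293T, against 4.46%, 2.07%, 2.98% and 0.750% of the protein-coding promoters called. The difference averaged 16.2 percentage points and was above 0 in all 4 lines, with the smallest p that the exact sign-flip test over 4 lines allows. With no limit on the distance to protein-coding starts it averaged 6.83 points. HEK293T alone called 111 promoters after thinning and 145 in lists of equal length, and HFF1 alone then called 381 and 311, so these counts moved with depth by over 1.5 times in both lines. The count for K562 alone was 219 after thinning and 363 in lists of equal length, and that for GM12878 342 and 250, each over 1.5 times below the deposited value in the lower of its settings.

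The CpG-rich share rose with the number of lines called, although 391 of the 813 promoters called in all 4 lines were CpG-poor. A promoter was counted as CpG-rich when the 500 bp on either side of the start had at least 50% G and C and a ratio of observed to expected CG of at least 0.6. Only 992 lncRNA promoters (8.27%) met this, against 58.5% of protein-coding ones. The CpG-rich share was 2.94% of the 8198 lncRNA promoters called in no line, 6.68% of those called in 1, 13.6% in 2, 26.4% in 3 and 51.9% of the 813 called in all 4. The median ratio of observed to expected CG rose from 0.215 to 0.631 along the same order. Of the CpG-rich lncRNA promoters 75.7% were called in at least 1 line and 42.5% in all 4, whereas of the 11009 CpG-poor ones 27.7% and 3.55% were. CpG-rich protein-coding promoters were called in all 4 lines in 76.1% of cases and CpG-poor ones in 18.1%, so lncRNA promoters had the lower share in either class. The TATA box letters TATAAA stood 20 to 40 bases before the start in 162 lncRNA promoters (1.35%) and in 2.89% of protein-coding ones; the lncRNA share was 0.615% among those called in all 4 lines and 1.50% among those called in none.

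Distance from protein-coding starts and the type of annotation also went with the calls. The share called in at least 1 line was 34.7% at 5 to 10 kb, 36.8% at 10 to 20 kb, 36.4% at 20 to 50 kb, 33.8% at 50 to 100 kb, 28.0% at 100 to 250 kb and 19.7% beyond. The share called in all 4 lines fell from 11.4% at 10 to 20 kb to 1.52% beyond 250 kb. At the edge of the rule, 34.0% of the 385 genes at 5 to 6 kb and 27.7% of the 394 lncRNA genes left out at 4 to 5 kb were called in at least 1 line. Starts outside protein-coding genes were called more often (33.3%) than starts inside on the opposite (27.4%) or the same strand (25.6%). Genes with more than 10 annotated transcripts were called in 51.4% of 566 cases, and those with 1 transcript in 27.7% of 7987. Genes known by an identifier only were called in 29.5% of cases, LINC genes in 35.1% of 2063, genes named as antisense in 35.3% of 555 and miRNA host genes in 57.4% of 61. The other gene types counted as far from protein-coding starts were called in at least 1 line less often, with 12.4% of processed pseudogenes, 15.2% of small nuclear RNA genes and 20.8% of miRNA genes. Transcribed unprocessed pseudogenes, at 24.5% in at least 1 line, exceeded lncRNA genes in calls in all 4 lines, with 9.23% against 6.77%.

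**Figure D4:**
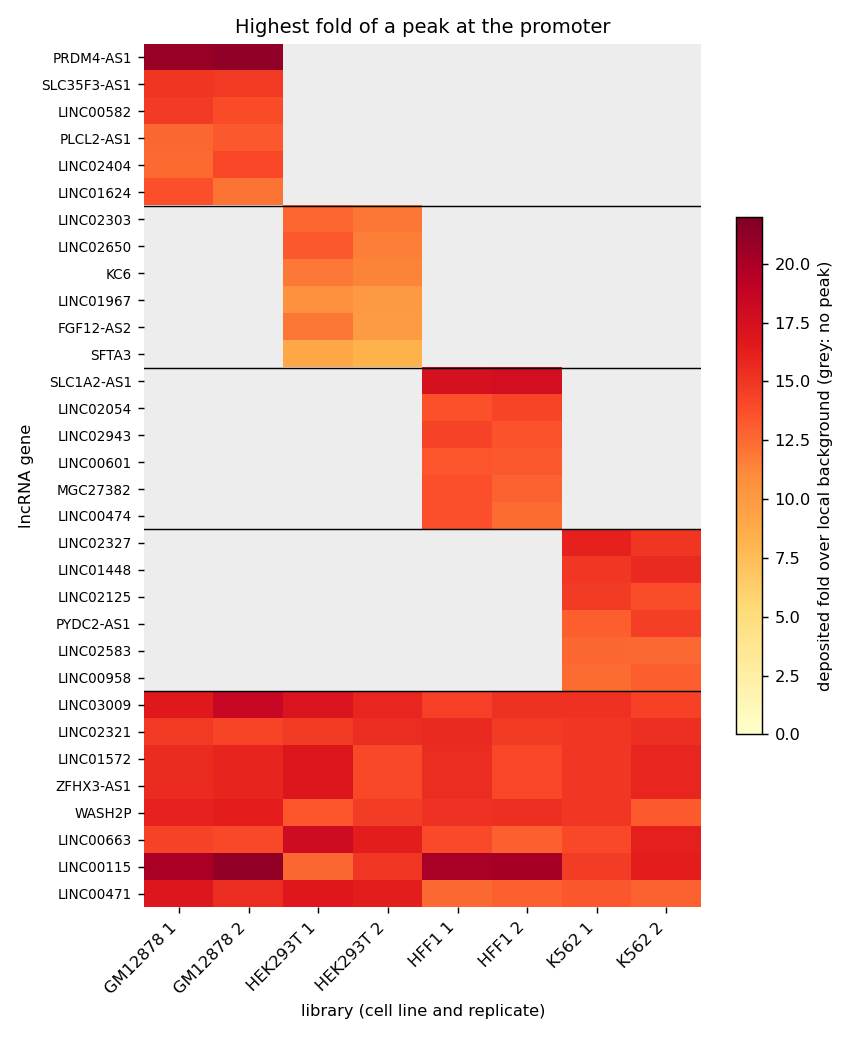
Deposited fold of the strongest peak at the promoter of 32 lncRNA genes (rows) in 8 libraries (columns), grey where no peak was listed. The upper 24 rows hold the 6 genes with the highest folds among genes with a symbol called in GM12878, HEK293T, HFF1 or K562 only. The lower 8 rows hold those of highest lowest fold among genes with a symbol called in all 4 lines. The line-restricted rows are empty in the other 6 libraries by selection.

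The strongest line-restricted promoters of genes with a symbol were described next. The folds chose them, so they carry no test. Symbols were given for 111 of the 397 promoters called in GM12878 only, 19 of 73 in HEK293T, 194 of 743 in HFF1 and 138 of 388 in K562. Promoters of genes with an identifier only were not ranked. PRDM4-AS1, on the opposite strand inside PRDM4, had folds of 20.9 and 21.2 and 84 reads at the summit in both GM12878 libraries. SLC35F3-AS1, opposite to SLC35F3, had 15.0 and 14.8, LINC00582 14.8 and 13.9 and PLCL2-AS1, opposite to the signalling gene PLCL2, 12.7 and 13.3. LINC02404 (12.5 and 14.1) and LINC01624 (13.7 and 12.0) start outside protein-coding genes. In these 6 genes the summit lay 277 to 1108 bp from the annotated start in replicate 1, so none of the peaks was centred on it.

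The strongest K562-restricted promoters of genes with a symbol differed in how near to the start they were centred. LINC02327 had folds of 16.1 and 15.0, LINC01448 of 14.9 and 15.7 and LINC02125 of 14.8 and 13.8. Their replicate 1 summits lay at 341, -386 and 76 bp from the start, negative before it. The summits of PYDC2-AS1 (13.0 and 14.6), LINC02583 (12.6 and 12.6) and LINC00958 (12.4 and 13.0), a gene described in several cancers, lay at -11, -113 and -6 bp in replicate 1. Over all 388 promoters called in K562 only, 60.6% and 62.4% of the strongest summits lay within 250 bp of the start. The same share was 39.5% in both libraries for the 397 in GM12878 only and 40.9% and 41.2% for the 743 in HFF1 only. K562-restricted genes also started outside protein-coding genes more often, in 85.6% of cases against 68.3% in GM12878, 72.9% in HFF1 and 75.3% in HEK293T. These differences between lines were described and not tested.

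Among genes with a symbol, the fibroblast-restricted promoters began with SLC1A2-AS1, opposite to the glutamate transporter gene SLC1A2, with folds of 17.4 and 17.7 and 81 and 69 reads. LINC02054 followed with 13.6 and 14.3, LINC02943 with 14.3 and 13.5, LINC00601 with 13.5 and 13.3, MGC27382 with 13.7 and 12.9 and LINC00474 with 13.7 and 12.4. The HEK293T-restricted ones had 18 to 38 reads at the summit in lists of lower depth. They were LINC02303 (folds of 12.7 and 12.0), LINC02650 (13.3 and 11.7), KC6 (11.9 and 11.4), LINC01967 (10.7 and 10.1), FGF12-AS2 (12.0 and 9.95) and SFTA3 (9.11 and 8.21). FGF12-AS2, opposite to FGF12, was the CpG-rich promoter among the 24 line-restricted genes named. GENCODE also lists a protein-coding gene SFTA3 around the SFTA3 start, so that peak may not be assigned to the lncRNA alone.

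Among promoters called in all 4 lines, the 8 genes with a symbol and the highest lowest fold were described, so their high folds follow from the choice. LINC03009 had folds of 16.6 and 18.4 in GM12878, 17.1 and 15.8 in HEK293T, 14.5 and 15.3 in HFF1 and 15.3 and 14.4 in K562. LINC02321 ranged from 14.3 to 15.7 over the 8 libraries. LINC01572 and ZFHX3-AS1 start next to each other on opposite strands and share 1 peak, with folds of 14.0 to 16.9. WASH2P (13.2 to 16.3), LINC00663 (13.0 to 18.0), LINC00115 (12.7 to 21.1) and LINC00471 (12.6 to 16.9) completed the set, and all but LINC00663 were CpG-rich. WASH2P belongs to a family of near-identical subtelomeric copies, so its reads are uncertain. Over all 813 promoters the median fold was 11.0 in both GM12878 libraries, 10.7 and 10.8 in HEK293T, 9.90 and 9.81 in HFF1 and 9.48 and 9.44 in K562. Promoters called in that line only had medians of 7.72 and 7.68, 7.55 and 7.59, 6.83 and 6.61, and 7.04 and 6.86 in the same order.

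Known motifs were counted in the 50 bases on either side of the strongest summit, on both strands. A summit shared by several genes was counted once. The letters were TGAGTCA for AP-1, whose reverse complement differs in the middle base alone. They were GGAATG for TEAD and AGATAAG for the GATA factors. For IRF, factors of the interferon response, GAAANNGAA was searched, and for RUNX, factors of blood and bone, TGTGGTT. The letters of PU.1, a factor of B cells and myeloid cells, were GGAAGTG. Those of the wider ETS family were CCGGAAG, and both share the letters of the ETS core. The letters for SP factors, which bind GC boxes, were GGGGCGGGG, and CTCF was searched by its consensus. Centred on the annotated start of all 12001 genes, windows of this length held AP-1 in 2.24%, TEAD in 6.10%, GATA in 1.43%, IRF in 3.70%, RUNX in 1.75%, PU.1 in 3.27%, ETS in 1.60%, SP in 1.05% and CTCF in 0.258% of cases. A match is a description of the letters and not a bound site.

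Line-restricted lncRNA promoters differed in these letters. Those called in HFF1 only held AP-1, the dimer of FOS and JUN proteins, at 17.6% and 18.3% of summits in the 2 replicates, against 7.14% and 7.91% in GM12878 only, 6.54% and 7.34% in K562 only and 4.29% and 5.71% in HEK293T only. They held TEAD, the DNA-binding partner of YAP, at 9.77% and 9.78%, against 1.79% to 5.71% in the other lines. Promoters called in K562 only held GATA, the motif of the erythroid factor GATA1, at 6.25% and 6.27%, against 0.413% and 0.551% in HFF1 only, 2.04% and 2.30% in GM12878 only and 1.43% and 4.29% in HEK293T only. Those called in GM12878 only held IRF, bound by interferon regulatory factors, at 8.67% and 9.69% and RUNX at 5.61% and 6.89%, against at most 4.13% of either in the other lines. K562-restricted promoters held the ETS letters at 5.98% and 5.99%, against 0.826% or less in HFF1, 2.30% or less in GM12878 and none in HEK293T. At lncRNA promoters called in all 4 lines the ETS share was 4.62% to 6.34%, and at protein-coding promoters with a peak 9.28% to 11.1%. PU.1 stood at 8.93% and 9.18% in GM12878 only and 6.25% and 7.08% in K562 only, against 4.29% or less in the other lines. The 2 replicates of a line look at the same promoters and are not independent here. The 70 distinct summits at the 73 promoters of HEK293T give whole-number steps of more than 1 percentage point.

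**Figure D5:**
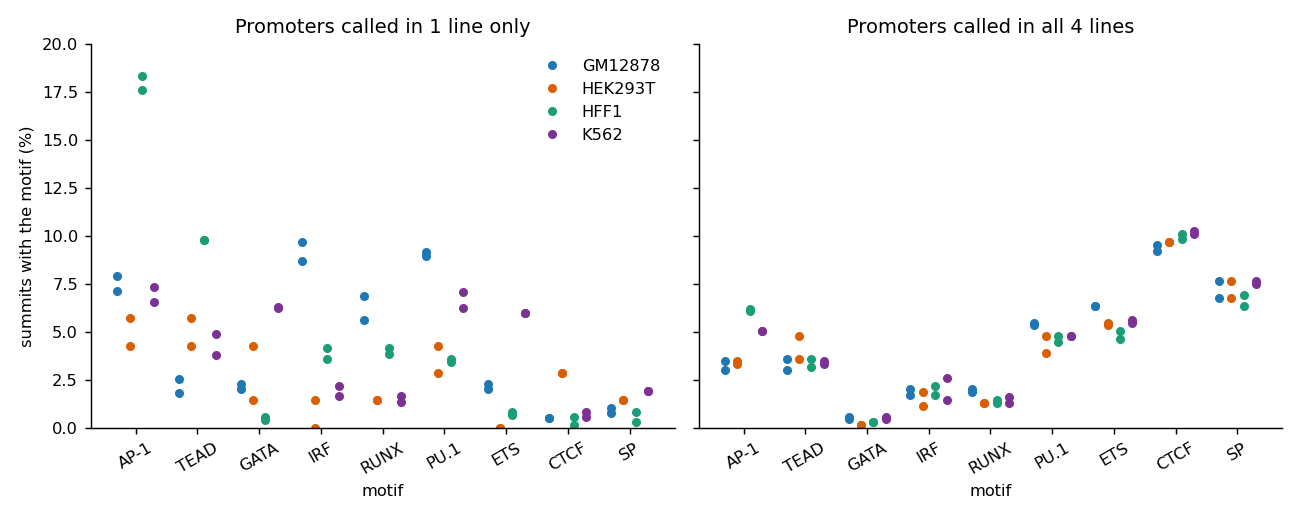
Share of summits (percent) with each motif within 50 bases, by line (colour) and replicate (points), for promoters called in that line only (left) and in all 4 lines (right). AP-1 stands highest in HFF1 at left, at 17.6% and 18.3%, and CTCF is between 9.22% and 10.2% in every library at right.

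The CTCF consensus was found at a minority of lncRNA promoters, most often at CpG-poor ones called in all 4 lines. CTCF is the zinc-finger protein that anchors chromatin loops and boundaries. Of the peaks at promoters called in all 4 lines, 9.22% to 10.2% held it over the 8 libraries, against 0.138% to 2.86% of those at promoters called in 1 line only. Over all promoters with a peak, whatever the number of lines, the share was 3.97% to 7.32% for lncRNA genes and 0.664% to 0.840% for protein-coding genes. The share depended on CpG content. Among promoters called in all 4 lines, 15.5% to 16.9% of peaks at CpG-poor ones and 2.67% to 3.27% at CpG-rich ones held the consensus. At CpG-poor promoters called in 3 lines the share was 5.86% to 10.7%, in 2 lines 0.820% to 2.50% and in 1 line 0.376% to 2.35%. Promoters called in all 4 lines had 689 to 694 distinct summits per library. Those with the consensus lay within 250 bp of the start in 46.5% to 57.6% of cases, and those without in 61.7% to 65.4%. At the CpG-poor promoters among these the ranges overlapped, with 48.3% to 57.1% for summits with the consensus and 48.6% to 53.7% for those without.

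Sequences of 50 bases on either side of the replicate 1 summit show these motifs in capitals. They were chosen after their values were seen. LINC00398 (chr13:30803024-30803124, plus strand) is a CpG-poor promoter called in all 4 lines, and the capitals mark the CTCF consensus. SLC35F3-AS1 (chr1:234271342-234271442, minus strand) was called in GM12878 only, with 2 IRF matches and 1 AP-1 match. LINC02573 (chr21:20258735-20258835, minus strand) was called in K562 only, with the GATA letters. LINC01857 (chr2:207662319-207662419, plus strand) is a B-cell lncRNA called in GM12878 only, with an IRF match on the other strand. LINC00494 and LINC00926, the other genes of the B-cell list called in GM12878 only, held no match to the motifs searched in the same window.
LINC00398: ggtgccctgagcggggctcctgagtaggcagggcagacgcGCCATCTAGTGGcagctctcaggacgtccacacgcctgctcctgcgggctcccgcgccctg
SLC35F3-AS1: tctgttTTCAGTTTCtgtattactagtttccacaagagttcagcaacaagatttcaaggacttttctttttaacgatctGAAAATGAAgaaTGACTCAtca
LINC02573: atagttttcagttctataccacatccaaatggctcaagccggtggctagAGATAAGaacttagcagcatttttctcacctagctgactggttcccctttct
LINC01857: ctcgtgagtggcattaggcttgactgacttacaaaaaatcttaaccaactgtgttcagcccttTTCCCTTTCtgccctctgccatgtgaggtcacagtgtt

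The LINC00398 promoter had folds of 15.5 and 14.7 in GM12878, 14.8 and 13.3 in HEK293T, 11.5 and 11.6 in HFF1 and 12.2 and 10.5 in K562. Its summits lay 121 to 153 bp before the start in all 8 libraries. LINC02573 had folds of 11.9 and 11.2 in K562, with 70 and 61 reads, and its summits lay 35 and 38 bp after the start.

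Known lncRNA genes were grouped by role, and the first group is the hosts of snoRNAs, genes whose introns are processed to guide RNAs that modify ribosomal RNA. Of 16 such genes with promoters over 5 kb from protein-coding starts, 15 were called in at least 1 line and 12 in all 4, with a median of 4 lines against 0 over all 12001 promoters. SNHG8 had folds of 10.1 and 9.78 in GM12878, 15.2 and 15.4 in HEK293T, 10.3 and 9.07 in HFF1 and 9.02 and 9.36 in K562. DANCR and EPB41L4A-AS1 were called in all 4 lines, with folds of 10.0 to 18.2 and 12.0 to 18.0. SNHG12, SNHG32 and SNHG7 had peaks in 7 libraries and none in HEK293T replicate 1, and SNHG27, which lies 1375729 bp from the nearest protein-coding start, had none in any library. Of the 16 promoters 13 were CpG-rich.

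Hosts of miRNAs were more mixed. Of 62 genes, 36 were called in at least 1 line, 12 in all 4 and 7 in 1 line only, and 23 had no peak in any library. Over all 12001 promoters, 31.7% were called in at least 1 line and 6.77% in all 4. MIR17HG, host of the miR-17-92 cluster, was called in all 4 lines. It had 188 reads at the summit in both K562 libraries, 104 and 102 in GM12878, 97 and 73 in HEK293T and 83 and 65 in HFF1. These lists differ in depth, on which the fold also depends. The MIR17HG folds were lowest in K562, at 4.87 and 5.11 against 6.32 to 7.71 in the other lines. MIRLET7A1HG and MIRLET7IHG, hosts of let-7 miRNAs, and MIR210HG, host of the hypoxia-induced miR-210, were also called in all 4. MIR181A1HG was called in every line but K562, with folds of 9.45 to 10.3 elsewhere. MIR23AHG was called in every line but HEK293T, with folds of only 2.38 to 3.14 on 52 to 82 reads. MIR583HG (10.5 and 8.82), MIR365BHG (9.80 and 9.24) and MIR3681HG (5.43 and 6.05) were called in HFF1 only. MIR3147HG, MIR548XHG and MIR663AHG were called in K562 only and MIR4527HG in GM12878 only.

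Abundant lncRNAs of many tissues were represented by 7 genes. MALAT1 and NEAT1, which are neighbours on chromosome 11 and whose RNAs sit in nuclear speckles and paraspeckles, were called in all 4 lines, as were NORAD, which binds Pumilio proteins, and the imprinted KCNQ1OT1. NEAT1 had many reads but low folds in the deeper lines; the fold is taken over the local background. Its summit held 130 and 123 reads in GM12878 with folds of 3.19 and 2.93, and 28 and 30 reads in HEK293T with folds of 7.42 and 7.36. MALAT1 had folds of 4.53 and 4.62 in GM12878, 8.54 and 9.87 in HEK293T, 4.95 and 4.81 in HFF1 and 4.69 and 4.83 in K562. NORAD ranged from 10.1 to 15.3 over the 8 libraries. CYTOR was called at its outermost start in HFF1 only (6.12 and 6.86). Of its 33 annotated start sites, however, 3 and 17 had a peak in the HFF1 libraries, 6 and 10 in K562, 2 and 4 in GM12878 and none in HEK293T.

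For some genes the outermost start hid peaks elsewhere. The imprinted MEG3 had no peak at its gene start, but 14 of its 34 annotated start sites had one in each HFF1 library. A peak was found at 2 in each GM12878 library, at 1 in K562 replicate 1 and at none in K562 replicate 2 or HEK293T. Neighbouring start sites can share a peak, so these are not counts of separate peaks. MIR99AHG had no peak at its gene start either, while 137 of its 196 start sites had one in both HFF1 libraries, 96 and 98 in HEK293T and 1 in each other library. H19, a fetal imprinted gene, had no peak at any of its 24 start sites. With windows around any annotated start site, also added once the data had been seen, the share of lncRNA genes with a peak was 20.4% ± 0.212 in GM12878 (SD, n = 2), 13.7% ± 0.171 in HEK293T, 25.0% ± 0.790 in HFF1 and 20.3% ± 0.960 in K562.

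The B-cell list held 8 genes, of which GM12878 called 6, HFF1 and K562 2 each and HEK293T 1. Over all lncRNA promoters the shares called were 17.0% in GM12878, 20.5% in HFF1, 16.2% in K562 and 10.7% in HEK293T. LINC00494 (folds of 11.8 and 10.9), LINC01857 (11.2 and 11.7) and LINC00926 (6.53 and 7.26) were called in GM12878 and had no peak in the other 6 libraries. LINC02397 (4.32 and 5.23) had a further weak peak in HFF1 replicate 1. MIR155HG, host of miR-155 and induced in activated B cells, had folds of 8.31 and 7.33 at its CpG-rich promoter in GM12878 and 8.67 and 8.73 in HFF1. Its summits held 113 and 102 reads in GM12878 and 61 and 49 in HFF1, and it had no peak in HEK293T or K562. MIR3142HG, host of miR-146a, was called in all 4 lines. LINC00861 went the other way, with folds of 10.0 and 8.48 in K562 and no peak in GM12878, and LINC01781 had a peak at its gene start in HEK293T replicate 1 alone. Of the 4 annotated start sites of LINC01781, however, 2 had a peak in both GM12878 libraries.

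The mesenchymal list held 6 genes, of which HFF1 called 4, HEK293T and K562 2 each and GM12878 1, to be read against the same shares over all promoters. LINC01615 was restricted to HFF1 with folds of 9.43 and 9.65. DNM3OS, host of miR-199a and miR-214, had folds of 11.2 and 9.91 in HFF1 and 3.71 and 4.45 in K562. MIR100HG, host of miR-100 and miR-125b, had folds of 11.0 and 9.41 in HFF1, 5.36 and 5.03 in HEK293T and 6.02 and 6.18 in K562, and no peak in GM12878. MIR31HG, near CDKN2A on chromosome 9, had folds of 10.6 and 9.38 in HFF1, 8.82 and 7.64 in HEK293T and 5.53 and 6.95 in GM12878, and no peak in K562. Among the 16 lncRNA promoters on chromosome 9 from 20 to 27 Mb, a stretch around CDKN2A, K562 had a peak at none, GM12878 called 3 and HEK293T and HFF1 2 each. Over the 443 lncRNA promoters of chromosome 9, K562 called 17.4%, GM12878 18.1%, HEK293T 12.6% and HFF1 22.8%. K562 is known to have lost CDKN2A, and the part of that loss in the missing peaks was not tested.

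Lists of other tissues were called in at least 1 line in 33.3% (pluripotent cells), 62.5% (brain) and 16.7% (liver) of their members, against 31.7% of all 12001 promoters. Of 6 lncRNA genes of pluripotent cells, LINC-ROR, ESRG, LINC00458 and LINC00678 had no peak, and LINC01108 (7.06 and 6.51) and LNCPRESS1 (4.42 and 5.00) were called in HFF1 only. Of 6 liver genes, LINC01018 was called in GM12878, HFF1 and K562 and none of the others in any line. Of 8 brain genes 4 were called in all 4 lines. These were MIAT, LINC00461, MIR9-1HG and MIR9-3HG, the last 3 of them CpG-rich, and MIAT had folds of 8.06 to 11.1. RMST, MIR137HG and MIR124-2HG had no peak, and HAR1A was called in GM12878 and HFF1. UCA1, first described in bladder cancer, was called in K562 only (7.81 and 8.52), and LUCAT1 in every line but HEK293T. HAGLROS, in the HOXD cluster, was called in HEK293T (6.15 and 7.24) and had a peak in K562 replicate 1.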

How the data were processed

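Bulk ATAC-seq peak lists of 8 human libraries were used, and the mouse lists were not used here. Per the submitters' processing notes, the tools were cutadapt 3.2, Bowtie2 2.4.2, Picard and MACS2 2.2.7.1, with the builds hg38 and mm10; filters and read shifting are not given in the sources used here. The authors deposited 1 list per library, so replicates were not pooled. Each deposited peak has a fold, the linear ratio of its summit pileup plus 1 over the local background plus 1. It also has −log10 p and −log10 q values. All of these come from the authors and served here to rank, filter and describe the peaks of 1 list at a time. The added 1 weighs more in lists of low depth, so folds of lines that differ in depth are not on 1 scale. The authors' summit position was given as an offset, in another deposited column.

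Gene models and sequence came from GENCODE release 44 and hg38. Members, gene lists and motifs were chosen with earlier results of these data known. Windows of 1 kb either side of a gene start were overlapped with peaks by at least 1 bp, on autosomes. A whole-number pileup and a background reproduced both fold and −log10 p of 100% of peaks within 0.01, and these pileups are the reads given. Reads are not independent molecules, and the precision from counting is unknown.

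Shares and Jaccard indices were tested over the 105 pairings of 8 libraries (exact, one-sided, smallest p 0.00952) and differences from protein-coding promoters by exact two-sided sign flips over 4 lines, whose smallest p is 0.125, the value found in all 3 tests. P-values were adjusted by Benjamini-Hochberg over 5 tests. The genes named are list members, for each line the 6 genes with a symbol called there only of highest lower fold, and the 8 called in all 4 lines of highest lowest fold. Soft-masked sequence was not computed because the reference is in capitals. One planned sequence is not reported here. The code was tested on simulated data. Python 3.11.15, numpy 2.4.6, pandas 2.3.3, scipy 1.17.1 and pysam 0.24.0 were used.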

Additional observations from a re-analysis of the deposited data

How the results depend on the processing

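The 5 tested values and the counts of promoters called in at least 1 line, in 1 line only and in all 4 were recomputed, where the setting allowed, with windows of 250 bp or 2 kb, other distance limits, the summit in place of the peak, −log10 q of at least 5, the 50000 highest peaks, a peak in either replicate, merged windows, starts outside protein-coding genes and each library left out, and, chosen after seeing the data, with thinned pileups and any annotated start. Of the values so obtained, 154 kept their direction and their side of the unadjusted threshold or stayed within 1.5 times the count. A further 3 counts moved more, and 1 test, of the variance share, no longer passed before adjustment. After adjustment it had not passed in the main setting either. The size of a difference was not judged. The 3 sign-flip tests cannot pass 0.05 over 4 lines, so only a change of direction could have counted for them. With no distance limit, 7935 lncRNA promoters were called in at least 1 line and 3362 in all 4. The windows of 1100 promoters overlapped that of another, and with such windows merged 3553 were called in at least 1 line and 693 in all 4. Thinning lowered the promoters called in 1 line only from 1601 to 1053.

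Replicate numbers are shared between lines, but the difference between replicates at lncRNA promoters correlated at -0.0200 to 0.0107 between lines, so the numbers were not taken as pairs; HEK293T, HFF1 and K562 share the name prefixes by replicate as well. Permuting only within replicate numbers, as a replicate block, the variance share between lines was 0.993 with an exact permutation p of 0.0833, and the Jaccard difference stayed at 0.427 with an exact permutation p of 0.0417, the smallest that 24 pairings allow. No block could be used in the other tests, which compare line means. The HEK293T lists are the shallowest, and a peak missing there may lie below what that depth can detect.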

Other observations

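Combinations of lines were counted for the lncRNA promoters called in 2 or 3 lines. GM12878 and HFF1 together and no other line called 208, HFF1 and K562 136, GM12878 and K562 130, HEK293T and HFF1 64, HEK293T and K562 55 and GM12878 and HEK293T 31. The combination of all but HEK293T, the shallowest line, was the most frequent of 3 lines with 213, and the others had 64 to 81. For protein-coding promoters the most frequent pair was HEK293T and HFF1 with 412, and GM12878 and HEK293T had 53.

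The share of lncRNA promoters called varied between chromosomes. In GM12878 it was lowest on chromosome 21 (9.06%) and highest on chromosome 19 (23.3%), and in HFF1 it ranged from 12.8% on chromosome 4 to 24.8% on chromosome 6. The 6389 lncRNA genes within 5 kb of a protein-coding start were called in at least 1 line in 64.7% of cases and in all 4 in 39.9%.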
